A study of Drosophila melanogaster with 12 samples.

Results

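The vacuolar ATPase (V-ATPase) genes described here are 10 widely expressed subunit genes of the proton pump of lysosomes, chosen by symbol. Each symbol was looked up by its FlyBase identifier among the 17023 identifiers of the count files. Of the 10, 7 had a row, and all 7 were among the 9024 genes that passed the filter on low counts. Of the V1 sector these were Vha68-1 and Vha68-2 (subunit A), Vha55 (B), Vha36-1 (D) and VhaSFD (H). Of the V0 sector they were Vha100-1 (a) and Vha16-1 (c). The identifiers given by the annotation for Vha26 (subunit E), Vha44 (C) and VhaAC39-1 (d) matched no row, and these genes were not analysed here. The count files also hold identifiers that the annotation pairs with no symbol, and counts of these 3 genes may stand under some of them.

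The V-ATPase is a rotary pump that uses ATP to move protons into lysosomes, endosomes and secretory vesicles. Its cytosolic V1 sector carries the catalytic A and the B subunits, whose ATP hydrolysis turns a central stalk that holds subunit D, and subunit H takes part in coupling and in silencing free V1. Its membrane V0 sector holds a ring of c subunits that carries protons past subunit a. In phagocytes such as macrophages the pump acidifies the compartments in which engulfed material is digested.

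The RNA-seq libraries came from S2 cells, an embryonic Drosophila melanogaster line with features of hemocytes, the blood cells of flies. Control cells took up 1 µg of double-stranded RNA (dsRNA) for GFP and depleted cells the same amount for porthos (symbol pths), a DEAD-box RNA helicase gene, and both were passaged after 48 h and harvested 3 days later. Cycloheximide at 100 µg/ml held ribosomes on mRNA for 3 min before lysis. A 20% part of each lysate served as input, and polysomes, the mRNAs under translation, were collected from the remainder on a gradient of 10 to 50% sucrose. The 12 libraries form 4 groups of 3: input and polysome fractions with GFP dsRNA, and the same with porthos dsRNA, all from this 1 cell line. Nothing in the labels says that replicates were separate cultures, and the spread behind the p-values may therefore be technical only.

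Depth ran from 7559406 to 11918941 counts per library, so that 3 counts, the limit that a count of 0 allows, equal 0.262 to 0.383 CPM, the scaled count used throughout. This limit covers counting error only. In input, pths had 220.2 to 226 CPM in control cells and 95.8 to 108 CPM in depleted cells, a log2 change of -1.11 ± 0.10 (SE). On polysomes it had 314 to 326 CPM in control and 93.7 to 141 CPM in depleted cells (-1.46 ± 0.10). Replicate 3 of the polysome porthos group stood apart, at -47.8 on the second principal component where the other 11 libraries lay between -2.27 and 13.7, and it showed a count for 10377 genes where the others showed 11485 to 11864. Of 10 plasmatocyte (phagocytic hemocyte) markers, all were seen in the S2 libraries, 9 passed the filter, and NimC1 and Sr-CI were near 1 CPM or below in input. Their summed level in input was 1477 to 1711 CPM with GFP and 1561 to 1844 CPM with porthos dsRNA, led by Col4a1. Neuron markers summed to 137 to 164 CPM in input, most of it from elav, with nSyb and Syt1 at 0.566 to 1.21 CPM. Muscle markers summed to at most 15.9 CPM and fat body markers to at most 9.12 CPM in any library, with Lsp1alpha at 0 counts in all 12.

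The subunit mRNAs spanned a wide range of levels in control cells. Levels of different genes are compared here as CPM per kilobase of exon. In GFP input Vha16-1, whose product is present in several copies in each ring, had by far the highest level, 932 ± 34.8 CPM per kb (SD, n = 3). Vha68-2 followed with 124 ± 2.94, then Vha55 with 102 ± 7.93 and Vha36-1 with 98.6 ± 6.05, whose libraries overlapped. Below them came Vha100-1 with 71.1 ± 4.06, VhaSFD with 59.7 ± 1.52 and Vha68-1 with 17.2 ± 0.34 CPM per kb. Every other pair of neighbours in this order was apart in all 3 libraries.

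On GFP polysomes the order was different for Vha36-1, the stalk subunit gene, which came second with 131.5 ± 8.10 CPM per kb. Vha16-1 stayed first with 862 ± 17.5 CPM per kb. Vha68-2 and Vha55 followed with overlapping values of 92.4 ± 5.15 and 91.9 ± 6.65, and then came Vha100-1 with 46.4 ± 0.58, VhaSFD with 41.5 ± 1.98 and Vha68-1 with 14.7 ± 0.73 CPM per kb. Lengths are of all exons of a gene in the annotation, 1064 bp for Vha36-1 and 2677 to 3289 bp for the other 6, so a transcript shorter than its gene's exons would be understated. With porthos dsRNA the order in input was that of GFP input, and on polysomes it was that of GFP polysomes, where the libraries of Vha36-1 and Vha68-2, of Vha68-2 and Vha55, and of Vha100-1 and VhaSFD overlapped.

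**Figure D1:**
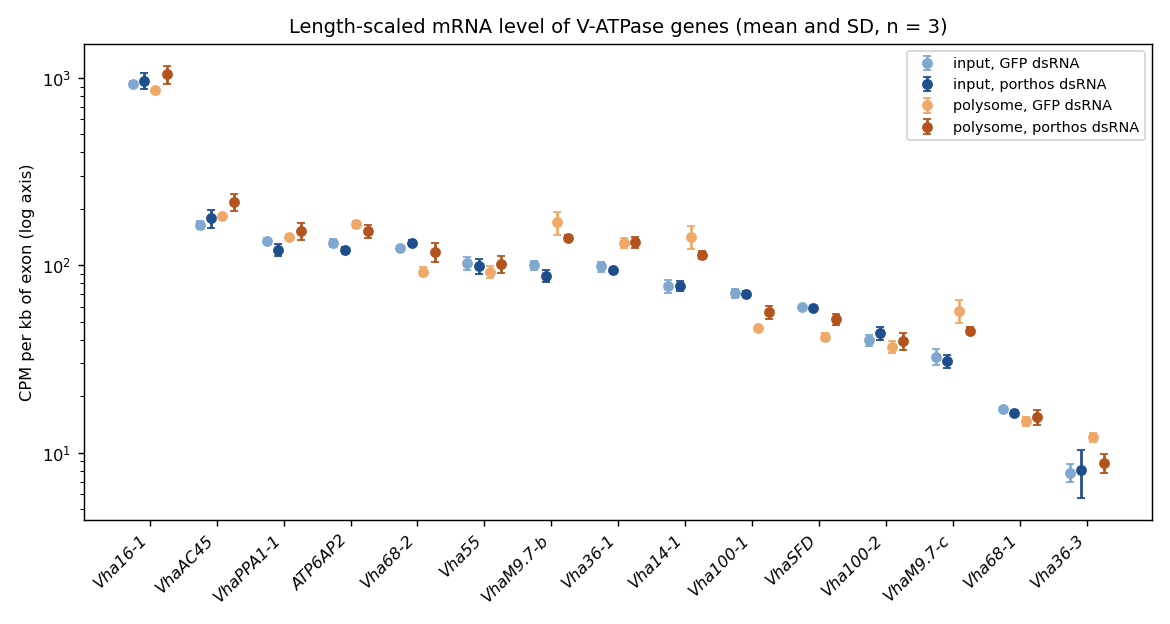
Length-scaled mRNA level of 15 V-ATPase genes with at least 10 CPM in a group, as mean CPM per kb of exon on a log axis with SD over 3 libraries, in 4 groups. Vha16-1 lies at 932 CPM per kb in GFP input, and the other 6 measured subunit genes of the rule lie between 17.2 and 124.

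Subunit A is encoded by the paralogs Vha68-1 and Vha68-2, which lie on chromosome 2L on opposite strands. In this annotation of dm6, Vha68-2 (FBgn0263598) spans 2L:12974322-12978607 on the plus strand and Vha68-1 (FBgn0265262) 2L:13000770-13004107 on the minus strand. Another paralog, Vha68-3, starts 178 bp after Vha68-2 and had at most 2.30 CPM in any library. Vha68-2 made up 87.8%, 87.9% and 87.85% of the Vha68-1 and Vha68-2 level per kb in the GFP inputs, and 88.6%, 89.6% and 88.8% in the porthos inputs. On polysomes its share was 86.3%, 86.8% and 85.75% in control cells and 88.6%, 87.9% and 88.6% in depleted cells. The share was higher in each porthos library than in each GFP library of the same fraction, and the difference between shares was not tested. How reads that fit several places were counted is not given in the sources used here, so the split between near-identical paralogs is uncertain.

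The other subunit genes lie apart from each other. Vha55 (FBgn0005671) is at 3R:12623762-12627829 on the minus strand and Vha36-1 (FBgn0022097) at 2R:15541435-15542498 on the plus strand. VhaSFD (FBgn0027779) is at 2L:16722883-16727826 on the minus strand. Vha100-1 (FBgn0028671) is at 3R:29131193-29137980 on the plus strand and Vha16-1 (FBgn0262736) at 2R:6625242-6633090 on the minus strand. Exons of Vha100-1 overlap those of Alg13 on the opposite strand by 11 bp, and exons of the other 6 overlap no exon of another annotated gene. The coding part of the canonical transcript is 2565 bp in Vha100-1, 1842 bp in both subunit A genes, and 477 bp in Vha16-1, where the 3′ UTR takes 2228 bp.

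The first comparison asks whether subunit mRNAs changed in the lysate when porthos was depleted. None of the 7 passed the test in input, and their log2 changes lay between -0.08 and 0.08. Vha68-2, the main gene of the catalytic subunit, had 336, 352 and 341 CPM in the GFP inputs and 349, 377 and 361 CPM in the porthos inputs. These ranges overlap in their ends, and the change was 0.08 ± 0.08 on the log2 scale (SE; edgeR, adjusted p = 0.72). Vha16-1, the c subunit gene, had 2859, 2765 and 2979 CPM with GFP and 2706, 2927 and 3309.9 CPM with porthos dsRNA. Its porthos values spread on both sides of the control values (0.06 ± 0.08, adjusted p = 0.83).

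Vha68-1, the minor subunit A gene, was the only one of the 7 whose input groups lay apart, lower with porthos dsRNA. It had 45.3, 47.1 and 45.7 CPM in the GFP inputs and 43.8, 42.6 and 44.3 CPM in the porthos inputs, and its change of -0.08 ± 0.09 did not pass (adjusted p = 0.76). Groups lay apart in either direction for 24.9% of all genes. The other changes in input were -0.06 ± 0.07 for Vha36-1, -0.04 ± 0.09 for Vha55, -0.02 ± 0.07 for Vha100-1 and -0.01 ± 0.07 for VhaSFD. The 95% intervals of all 7 lay within -0.26 and 0.25 on the log2 scale. Over all genes 1.72% were called in input, 0.997% higher and 0.720% lower, so that 0 of 7 is near the background. At an unadjusted p under 0.05 edgeR also gave 0 of 7, and DESeq2 and limma voom called 0.

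**Figure D2:**
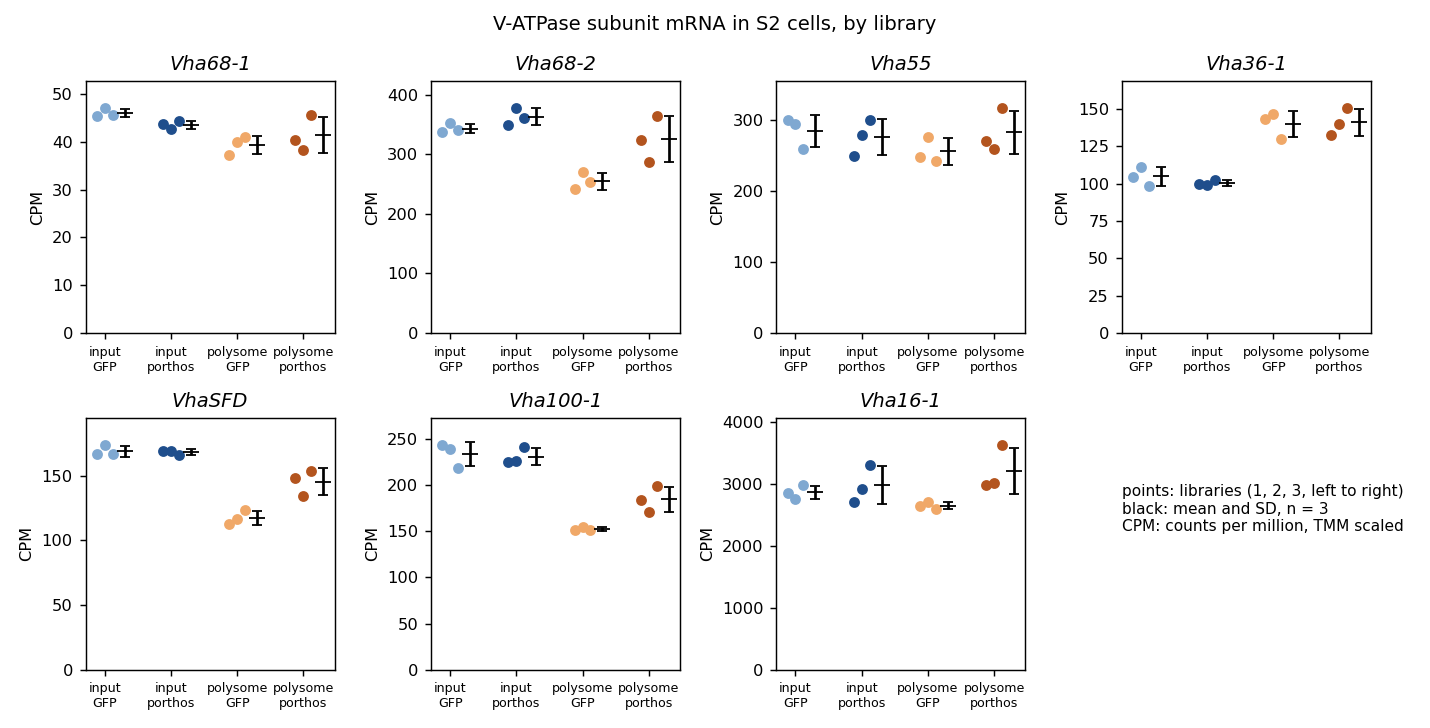
CPM of the 7 measured subunit genes in each of the 12 libraries, with the mean and SD of 3 libraries beside the points, on axes that start at 0. Input groups overlap for all but Vha68-1, and the porthos polysome libraries of Vha68-2, VhaSFD, Vha100-1 and Vha16-1 all lie above the GFP polysome libraries.

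On polysomes 4 of the 7 subunit mRNAs were higher in porthos dsRNA cells and 0 were lower, at an adjusted p under 0.05. Those that rose were the subunit genes Vha68-2 (A), VhaSFD (H), Vha100-1 (a) and Vha16-1 (c), by 21.1% to 27.5%. They come from both sectors. Over all genes 18.4% were called on polysomes, 11.2% higher and 7.14% lower. The median log2 change of the 7 was 0.28, against 0.00 over all genes tested, and all 7 were above 0, as were 4462 of the 9024 genes.

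Vha68-2 had 241, 269.6 and 254 CPM on polysomes with GFP dsRNA and 324, 287 and 365 CPM with porthos dsRNA. Each porthos library exceeded each control library, and the log2 change was 0.35 ± 0.08 (95% interval 0.18 to 0.52, adjusted p = 0.0041). VhaSFD, which encodes the regulatory subunit H, had 112, 116 and 123 CPM with GFP and 148, 134 and 154 CPM with porthos dsRNA. Again the groups lay apart, and the change was 0.31 ± 0.07 (interval 0.16 to 0.45, adjusted p = 0.0040).

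In the membrane sector, Vha100-1, whose product forms the proton path with the c ring, had 151, 155 and 152 CPM on GFP polysomes and 184, 171 and 199 CPM on porthos polysomes. The control libraries were close to each other and below all porthos libraries, and the change was 0.28 ± 0.07 (interval 0.12 to 0.43, adjusted p = 0.012). Vha16-1 had 2653, 2707 and 2599 CPM with GFP and 2982, 3022 and 3635 CPM with porthos dsRNA, a change of 0.28 ± 0.08 (interval 0.11 to 0.45, adjusted p = 0.021). Replicate 3 was its highest library by far, and the other porthos libraries were still above the controls. Groups lay apart and higher for these 4 of 7 genes, and for 16.2% of all genes.

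The 3 other subunit mRNAs did not pass on polysomes, and their groups overlapped. Vha55, the gene of subunit B that alternates with A in the head of V1, had 249, 277 and 243 CPM with GFP and 271, 260.1 and 317 CPM with porthos dsRNA (0.14 ± 0.09, interval -0.04 to 0.33, adjusted p = 0.28). Vha68-1 had 37.2, 39.9 and 40.9 CPM with GFP and 40.5, 38.3 and 45.5 CPM with porthos dsRNA (0.07 ± 0.09, interval -0.11 to 0.26). Vha36-1 had 143, 146 and 130.1 CPM with GFP and 133, 140.0 and 151 CPM with porthos dsRNA (0.01 ± 0.07, interval -0.14 to 0.16). Those intervals overlap the ones of the 4 called genes, except that the interval of Vha36-1 ends below the lower bound of VhaSFD and Vha68-2, and no difference between subunits was tested.

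The library that stood apart took part in these calls. Without replicate 3 of the polysome porthos group 1 subunit was called, VhaSFD (0.24, adjusted p = 0.030), while Vha68-2 was at 0.24 (adjusted p = 0.053), Vha100-1 at 0.20 (adjusted p = 0.091), Vha16-1 at 0.16 (adjusted p = 0.22) and Vha55 at 0.03. Of all genes 599 were then higher and 416 lower. Without replicate 1 of the polysome GFP group 2 subunits were called, VhaSFD and Vha68-2, and Vha100-1 was at 0.26 (adjusted p = 0.051) and Vha16-1 at 0.26 (adjusted p = 0.067). Vha16-1 also missed the threshold without replicate 2 (adjusted p = 0.068) or replicate 3 (adjusted p = 0.073) of that group. VhaSFD was called in each of the 12 fits that left out 1 library.

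Some plasmatocyte markers were also higher on porthos polysomes. The 10 plasmatocyte markers summed to 969 to 1123 CPM on GFP and 1126 to 1305 CPM on porthos polysomes. Of the 9 tested 5 were called higher there and 0 lower, beside 11.2% and 7.14% of all genes. In input 3 were called higher, beside 0.997% of all genes. Not all rose, with crq at a mean of 244 CPM on GFP and 235 CPM on porthos polysomes. Germline genes seen in S2 cells, aub and bam, summed to 85.3 to 98.9 CPM and 118 to 167 CPM. Crystal cell and lamellocyte markers summed to 119 to 130.3 CPM and 103.5 to 116 CPM, with 1 of 4 tested lower. The part of any of these in the subunit values was not tested, and in bulk libraries fewer cells of a type and less RNA per cell cannot be told apart.

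**Figure D3:**
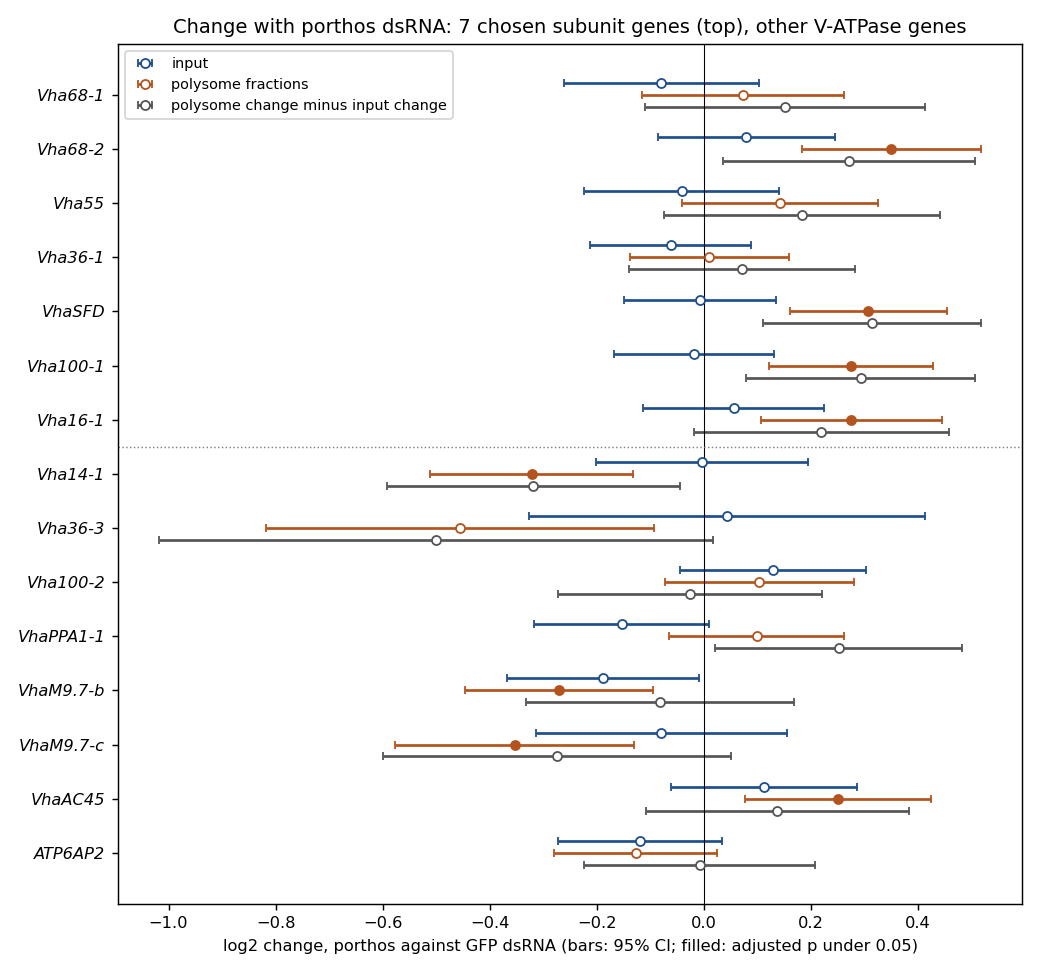
Log2 change with porthos against GFP dsRNA in input, on polysomes, and the difference of these changes, for the 7 measured subunit genes (above the dotted line) and 8 other V-ATPase genes with at least 10 CPM in a group. Bars are 95% intervals and filled points passed the test, which are polysome changes only, 5 higher and 3 lower.

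The difference between the polysome change and the input change measures whether an mRNA shifted on polysomes beyond its level in the lysate, relative to the average mRNA. It was above 0 for all 7 subunits, beside 4468 of the 9024 genes tested, and passed for none. VhaSFD had 0.32 ± 0.10 (adjusted p = 0.13), Vha100-1 0.29 ± 0.10 (adjusted p = 0.17) and Vha68-2 0.27 ± 0.11 (adjusted p = 0.26). These 3 had an unadjusted p under 0.05 in edgeR. Vha16-1 had 0.22 ± 0.12, Vha55 0.18 ± 0.12, Vha68-1 0.15 ± 0.13 and Vha36-1 0.07 ± 0.10. The call was scarce over all genes too, with 0.0997% of 9024 called, 0.0776% higher and 0.0222% lower. DESeq2 called 1 subunit, VhaSFD, and 5.88% of all genes, and limma voom called 0 subunits. When replicate 2 of the porthos polysomes was left out edgeR called 3, VhaSFD, Vha100-1 and Vha68-2, and 7.51% of all genes.

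Polysome fractions against input within one treatment show how strongly an mRNA was loaded relative to the average mRNA. In GFP dsRNA cells Vha36-1 was the one measured subunit with more on polysomes, by 0.42 ± 0.07 on the log2 scale (adjusted p = 2.7e-05). With the trend of level with exon length removed from each library the value was -0.04 (adjusted p = 0.72). It had 105, 111 and 98.6 CPM in input and, as given above, at least 130.1 CPM in each polysome library. The 4 subunits lower on polysomes were Vha100-1 (-0.62 ± 0.07, adjusted p = 1.5e-07), VhaSFD (-0.52 ± 0.07), Vha68-2 (-0.43 ± 0.08) and Vha68-1 (-0.23 ± 0.09, adjusted p = 0.034). Vha100-1 had 244, 239 and 219 CPM in GFP input, each far above the highest GFP polysome library. VhaSFD had 166, 174 and 166 CPM in GFP input, again above all polysome libraries. The GFP input and polysome groups lay apart for 1 subunit that was higher and 5 that were lower on polysomes, Vha16-1 among the latter, and for 31.3% and 33.1% of all genes.

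Vha55 (-0.15 ± 0.09, adjusted p = 0.15) and Vha16-1 (-0.11 ± 0.08, adjusted p = 0.26) did not pass in GFP cells. Over all genes 55.4% were called, 26.5% higher and 28.9% lower, so 5 of 7 is not far from the background. RNA of inputs and of polysome fractions was extracted in different ways, and the fraction and the extraction cannot be told apart. Scaling by library size alone put the median of all genes at 0.138 in place of 0.01 and left Vha68-1 at -0.10 (adjusted p = 0.38), and the call of Vha68-1 was lost in 9 of the 12 fits that left out 1 library.

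In porthos dsRNA cells the loading values were, beside those of GFP cells, 0.49 ± 0.07 for Vha36-1, -0.32 ± 0.07 for Vha100-1, -0.21 ± 0.07 for VhaSFD, -0.16 ± 0.08 for Vha68-2, -0.08 ± 0.09 for Vha68-1, 0.03 ± 0.09 for Vha55 and 0.11 ± 0.08 for Vha16-1. Vha36-1 was called higher (adjusted p = 5.4e-06), Vha100-1 (adjusted p = 0.00073) and VhaSFD (adjusted p = 0.015) lower, and 47.8% of all genes were called. Vha100-1 had 226, 226 and 242 CPM and VhaSFD 169, 169 and 166 CPM in the porthos inputs, all above their porthos polysome values. Vha36-1 had 100.0, 98.9 and 103 CPM in the porthos inputs, all below its polysome values. Among all genes 25.6% had groups apart and higher in this comparison, and 26.4% lower. The test of the difference between both treatments is the difference of changes given above, which uses the same libraries. Without replicate 3 of the polysome porthos group Vha68-2 was also lower (-0.25, adjusted p = 0.011). VhaSFD was not called without porthos input 1, 2 or 3 or without porthos polysome replicate 2 (adjusted p from 0.066 to 0.10), and with library size alone it was at -0.12 (adjusted p = 0.16), where Vha16-1 was called higher (0.20, adjusted p = 0.047).

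**Figure D4:**
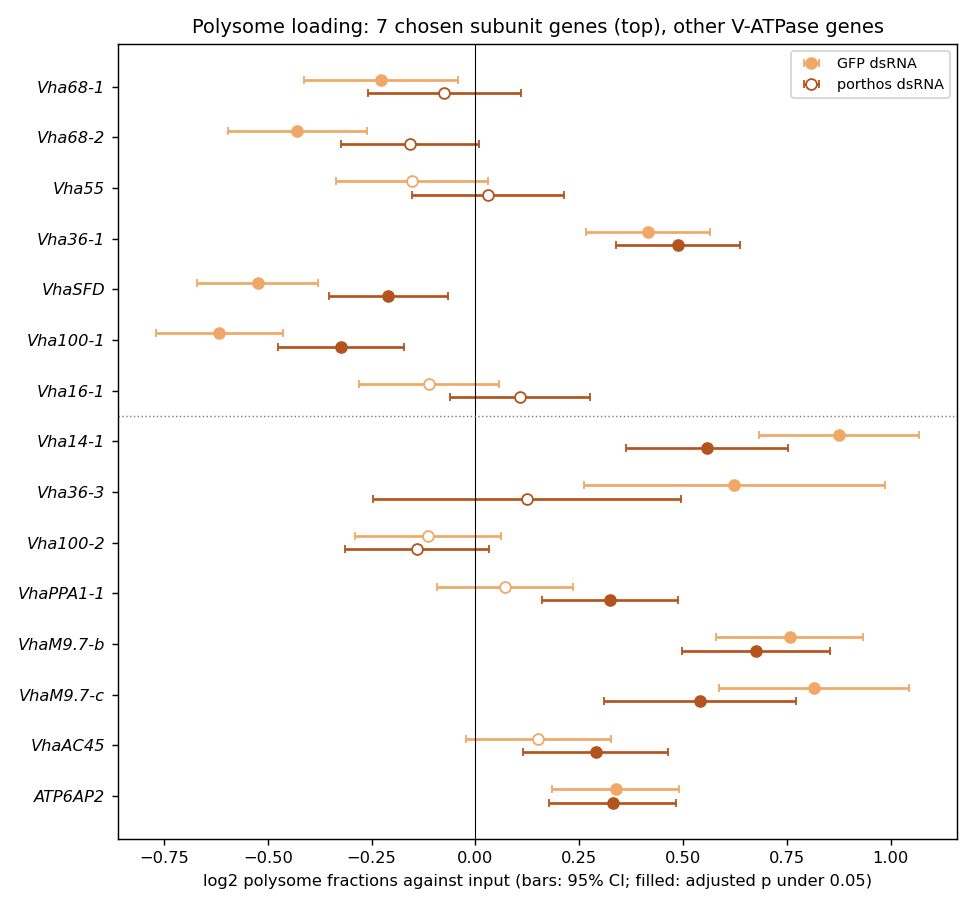
Log2 difference of polysome fractions against input in GFP and in porthos dsRNA cells, for the 7 measured subunit genes (above the dotted line) and 8 other V-ATPase genes, with 95% intervals and filled points where the test was passed. Vha36-1 lies at 0.42 and 0.49, and Vha100-1 at -0.62 and -0.32.

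Besides the 10 chosen symbols, 24 V-ATPase genes were listed, of which 23 had a row and 14 were tested. Vha13 (subunit G) was not analysed here. The 9 genes with a row that were not tested had at most 12 counts in a library, among them Vha16-2, Vha100-3 and VhaM9.7-d at 0 counts in all 12 libraries. Another 6 were tested at a mean of at most 4.47 CPM in any group, namely Vha36-2, Vha68-3, Vha100-4, Vha16-5, VhaM9.7-a and VhaAC39-2. None of these 6 passed in input, on polysomes or in the difference of changes. VhaM9.7-a passed in the comparison of polysomes with input in porthos cells (1.25 ± 0.52, adjusted p = 0.049), a call lost in 13 of 20 alternative fits. Vha16-1 was thus the sole c subunit gene of this list with more than a few CPM, and Vha100-1 and Vha100-2 were the a subunit genes in use.

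Among the 14 other V-ATPase genes tested, 3 were lower and 1 was higher on porthos polysomes, beside 7.14% and 11.2% of all genes. All of these called genes were among the 8 with at least 10 CPM. Lower were Vha14-1 (subunit F of the central stalk) and the small membrane subunit e genes VhaM9.7-b and VhaM9.7-c. Higher was VhaAC45, which encodes a large accessory protein of V0. Vha14-1 had 108, 89.5 and 83.7 CPM on GFP and 73.4, 72.5 and 79.6 CPM on porthos polysomes. All porthos values lay below all GFP values (-0.32 ± 0.09, adjusted p = 0.017).

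VhaM9.7-b had 239, 196.5 and 183 CPM on GFP and 172, 176 and 165 CPM on porthos polysomes, again apart (-0.27 ± 0.08, adjusted p = 0.029). VhaM9.7-c had 56.2, 43.7 and 45.7 CPM with GFP and 39.8, 37.3 and 36.7 CPM with porthos dsRNA (-0.35 ± 0.11, adjusted p = 0.025). In each of these 3 genes GFP replicate 1 was the highest library, and without it their changes were -0.22 (adjusted p = 0.13), -0.17 (adjusted p = 0.20) and -0.25 (adjusted p = 0.17). Without replicate 1 of the polysome porthos group Vha14-1 (adjusted p = 0.061) and VhaM9.7-b (adjusted p = 0.067) did not pass. Without replicate 3 of that group the e subunit genes were at -0.27 (adjusted p = 0.063) and -0.35 (adjusted p = 0.056). VhaAC45 had 369, 379.9 and 356 CPM with GFP and 411, 415 and 489 CPM with porthos dsRNA (0.25 ± 0.08, adjusted p = 0.040). Its call was lost in 12 of 21 alternative fits, and without replicate 3 of the porthos group the change was 0.14 (adjusted p = 0.30).

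Vha100-2, the second a subunit gene, had a polysome change of 0.10 ± 0.09 (adjusted p = 0.43), VhaPPA1-1, which encodes the second proteolipid of the ring, 0.10 ± 0.08 (adjusted p = 0.41), and ATP6AP2, which encodes the other accessory protein, -0.13 ± 0.07 (adjusted p = 0.25). Vha36-3, a minor subunit D gene with 14.9 to 16.5 CPM on GFP and 10.1 to 12.9 CPM on porthos polysomes, was at -0.46 ± 0.18 (adjusted p = 0.071) with groups apart. In input 0 of the 14 passed in edgeR (1 at an unadjusted p under 0.05, and 0 in DESeq2 and limma voom), and in the difference of changes 0 passed (2 unadjusted). Over all genes 1.72% were called in input and 0.0997% in the difference of changes.

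Among paralogs, Vha36-1 made up 92.6% ± 0.69, 92.2% ± 1.93, 91.6% ± 0.63 and 93.8% ± 0.33 of the Vha36-1 and Vha36-3 level per kb in GFP input, porthos input, GFP polysomes and porthos polysomes (SD, n = 3). Vha100-1 made up 64.1% ± 1.18 of the Vha100-1 and Vha100-2 level in GFP input and 61.8% ± 1.21 in porthos input. On polysomes its share was 55.9% ± 1.83 with GFP and 58.7% ± 3.23 with porthos dsRNA, ranges that overlap. VhaM9.7-b had between 74.1% and 75.8% of the VhaM9.7-b and VhaM9.7-c level in all 4 groups.

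Loading of V-ATPase mRNAs varied with the length of the gene's exons. Those higher on GFP polysomes were Vha14-1 (659 bp of exon, 0.88 ± 0.09), VhaM9.7-c (848 bp, 0.82 ± 0.11), VhaM9.7-b (1216 bp, 0.76 ± 0.09), Vha36-3 (1294 bp, 0.62 ± 0.18), Vha36-1 (1064 bp) and ATP6AP2 (1468 bp, 0.34 ± 0.07). The genes called lower, Vha68-1, Vha68-2, VhaSFD and Vha100-1, had 2677 to 3289 bp. Across the 15 V-ATPase genes Spearman's rho between exon length and GFP loading was -0.88, and across the 8818 genes with a length it was -0.66. Across the 7 measured subunit genes of the rule alone it was -0.54. Genes are not independent replicates and share the same libraries, so these values describe the genes measured.

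The change on polysomes ran the other way with length, with a rho of 0.80 across the 15 V-ATPase genes and 0.23 across all genes with a length. For the difference of changes it was 0.69 and 0.26. Across the 7 measured subunit genes alone rho was 0.50 for the polysome change and 0.75 for the difference of changes. When the trend of log2 CPM with exon length was removed from each library, a step chosen after seeing the data, the same number of subunits, 4, was called on polysomes, namely Vha68-2 (0.28, adjusted p = 0.00816), VhaSFD (0.24, adjusted p = 0.010), Vha100-1 (0.22, adjusted p = 0.026) and Vha16-1 (0.21, adjusted p = 0.043). Of all genes 18.2% were called in that fit, 938 higher and 701 lower. Vha14-1 (-0.14, adjusted p = 0.26), VhaM9.7-c (-0.23, adjusted p = 0.10) and VhaAC45 (0.21, adjusted p = 0.073) then did not pass, and VhaM9.7-b did (-0.22, adjusted p = 0.037).

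Loading depended more on that step. With the length trend removed Vha36-1 was at -0.04 in GFP cells (adjusted p = 0.72), and 3 subunits, Vha68-2 (-0.22), VhaSFD (-0.31) and Vha100-1 (-0.34), were lower on polysomes, where 40.1% of all genes were called. In porthos cells 1 subunit was called, Vha16-1 (0.29, adjusted p = 0.0032), higher on polysomes, beside 29.2% of all genes. Of the 3077 bp of exon of that gene 477 bp are coding.

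**Figure D5:**
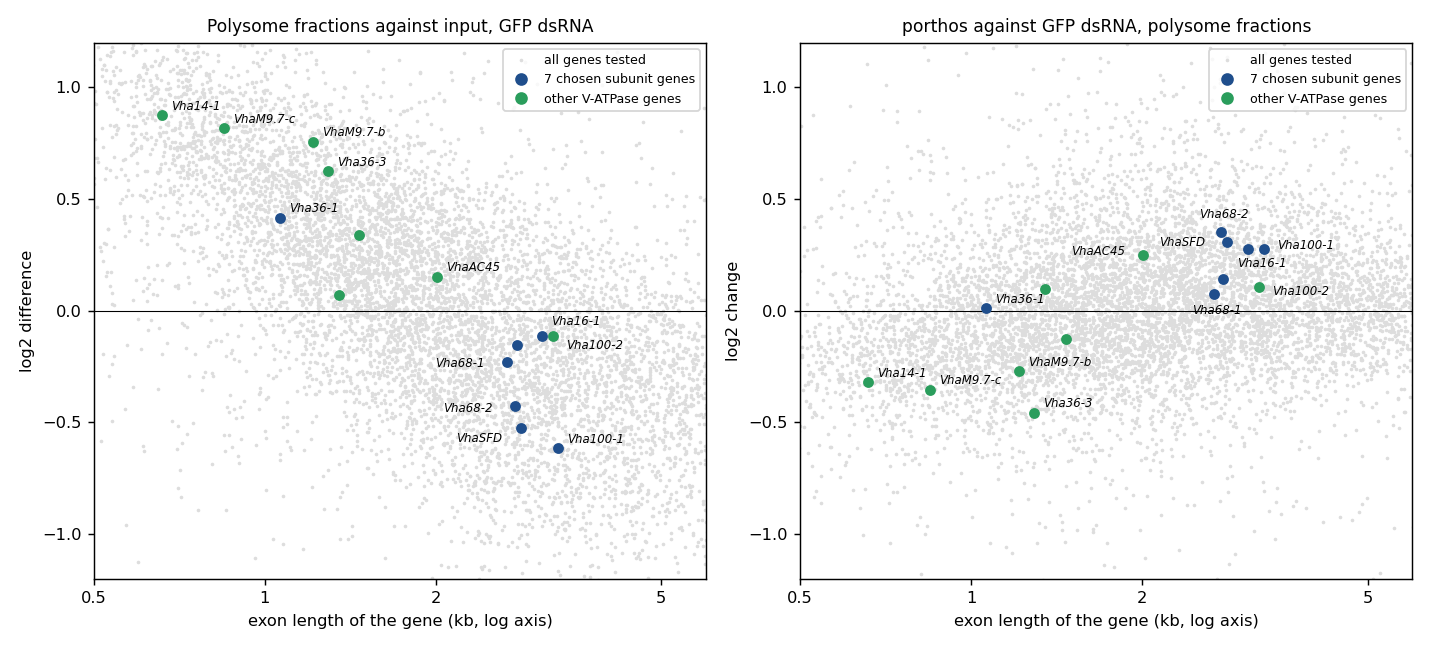
Exon length in kb on a log axis against the log2 difference of polysome fractions and input in GFP cells (left) and against the log2 change with porthos dsRNA on polysomes (right), for all genes tested within the axes (grey) and the 15 V-ATPase genes with at least 10 CPM. Short V-ATPase genes such as Vha14-1 lie high on the left (0.88) and low on the right (-0.32), and the long Vha100-1 lies at -0.62 and 0.28.

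Genes that work with the pump were read from lists. Of 5 genes for its assembly and regulation (Rbcn-3A, Rbcn-3B, Vma21, mtd and Mitf), 0 were called on polysomes in edgeR, DESeq2 or limma voom (1 at an unadjusted p under 0.05). Their median change was 0.07, and in input 0 were called (0 unadjusted). Of 9 tested genes that dock or regulate TORC1, the growth kinase complex activated at the lysosome, 0 were called on polysomes in the same tools (0 unadjusted), with a median of -0.07. Over all genes 18.4% were called on polysomes and 1.72% in input in edgeR. For lists this small 0 calls were not read as a difference from these shares.

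Among 16 tested lysosomal genes 8 rose and 1 fell on polysomes, with a median of 0.28, against 11.2% and 7.14% of all genes. Some of the 8 had overlapping groups. Without porthos polysome replicate 3 the higher calls over all genes fell from 1014 to 599. The count for this list in that fit was not determined. CtsL1, the gene of the protease cathepsin L, had 1159, 1226 and 1216 CPM with GFP and 1893, 1596 and 2099 CPM with porthos dsRNA. Its porthos libraries lay far above the controls (0.63 ± 0.08, adjusted p = 1.9e-05), and it overlaps CG42806 on the same strand, so its counts are uncertain. Sap-r, which encodes the precursor of the saposins that help lipid breakdown, had 535, 559 and 528 CPM with GFP and 823, 594 and 862 CPM with porthos dsRNA (0.49 ± 0.10, adjusted p = 0.00098), and it overlaps CG15547 on the same strand. Ect3, a beta-galactosidase gene, rose by 0.59 ± 0.14 on the log2 scale (adjusted p = 0.0046, and adjusted p = 0.055 without GFP polysome replicate 2).

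The lysosomal gene that fell was Cln7, which encodes a membrane transporter (-0.41 ± 0.14, adjusted p = 0.042). It overlaps lark on the opposite strand, and its call was lost in 6 of 21 alternative fits. Over all genes 1.72% were called in input, 0.997% higher and 0.720% lower. Of the 16 lysosomal genes 1 was called there, the lysosomal efflux carrier gene spin. It had 306, 323 and 295 CPM with GFP and 232, 252 and 257 CPM with porthos dsRNA, apart in all libraries (-0.32 ± 0.07, adjusted p = 0.017). In 4 of 21 alternative fits, those without GFP input 1 or 2 or without porthos input 1 or 2, spin was not called (adjusted p from 0.056 to 0.15).

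On polysomes 11.2% of all genes were higher and 7.14% lower. Of 16 tested genes of endosomal sorting 3 rose there and 0 fell. They were the retromer gene Vps35 (0.61 ± 0.08, adjusted p = 2.1e-05), the ESCRT gene TSG101 (0.28 ± 0.07, lost in 3 of 21 alternative fits) and the tethering gene Vps11 (0.33 ± 0.11, adjusted p = 0.033, lost in 10 of 21 alternative fits). All 3 overlap a gene on the opposite strand. Of 18 autophagy genes 2 rose, Atg2 (0.30 ± 0.08) and Atg3 (0.28 ± 0.07), and 0 fell, with a median of -0.02. The 2 of 18 are near the share of all genes called higher. The call of Atg2 was lost in 3 of 21 alternative fits and that of Atg3 in 4, and TSG101, Atg2 and Atg3 all lost it without GFP polysome replicate 1 or porthos polysome replicate 1.

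The mitochondrial ATP synthase, a related rotary enzyme that makes ATP, had members called in both directions. Of 13 genes 2 rose on polysomes, not far from the 11.2% of all genes. The 2 were ATPsynbeta (0.53 ± 0.08) and blw (0.35 ± 0.08), which encode the head subunits beta and alpha. ATPsynbeta overlaps CG11076 on the opposite strand. Another 4 fell, beside 7.14% of all genes, among them ATPsynG (-0.45 ± 0.10), ATPsynF (-0.39 ± 0.11) and ATPsynCF6 (-0.31 ± 0.09). The median of the 13 was -0.12. ATPsynF and ATPsynCF6 each lost their call in 5 of 21 alternative fits, among them those without GFP polysome replicate 1 (-0.28 and -0.19), porthos polysome replicate 1 or 3, and that with the length trend removed (-0.20 and -0.15). The call of blw was lost without porthos polysome replicate 3 (adjusted p = 0.055). In the endosome, autophagy and ATP synthase lists 0 genes were called in input, with 2 of each at an unadjusted p under 0.05 and 0 in DESeq2 and limma voom. Of all genes 1.72% were called in input in edgeR. In the difference of changes 0 genes of any of these 6 lists passed in edgeR. At an unadjusted p under 0.05 were 7 of 16 lysosomal, 7 of 13 ATP synthase and 4 of 16 endosomal genes. So were 4 of 18 autophagy, 1 of 9 TORC1 and 0 of 5 assembly genes. Over all 9024 genes, a gene with an unadjusted p of 0.04996 in edgeR stood at rank 1352 in this comparison. The median was 0.19 for the lysosomal and -0.26 for the ATP synthase list. DESeq2 called 3 lysosomal, 3 ATP synthase and 1 endosomal gene, beside 5.88% of all genes, and limma voom called 0 in the lists.

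The subunit genes varied together across the 12 libraries with 1 exception. Pearson's r between a gene's log2 CPM and the mean of the 7, each centred on its own mean, was 0.73 to 0.94 for 6 genes and -0.44 for Vha36-1. The mean contains the gene itself. Outside the 7, the 5 genes whose profile was most like that mean were Got1 (r = 0.96), FBgn0262511 (0.96), pont (0.96), FBgn0015806 (0.95) and CCT4 (0.95). The identifiers have no symbol in the annotation used. FBgn0262511 may be an older identifier of Vha44, a chosen gene whose present identifier has no row, but no source used here pairs them. Whether FBgn0262511 or FBgn0015806 is itself a V-ATPase gene was not determined. These values share depth, scaling and the split between input and polysome libraries.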

How the data were processed

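The authors deposited, for every library, raw read counts by FlyBase identifier. The tools named by the submitters' processing notes are HISAT2 2.1.0 and featureCounts 1.4.6, and the build is dm6. Which annotation release, strand setting and treatment of multiply mapped reads they used is not given in the sources used here. Of 17023 identifiers 16647 matched a symbol in an Ensembl annotation (release 115) of the same assembly, which gave coordinates (counted from 1) and exon lengths.

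From the counts, CPM with TMM scaling and 1 quasi-likelihood fit of all 12 libraries with a mean per group were computed in edgeR 4.0.16 (R 4.3.3) after filterByExpr. P-values were adjusted (Benjamini-Hochberg) over all 9024 genes and called under 0.05, and a log2 change is ± its SE. The common biological coefficient of variation was 0.0792. DESeq2 1.42.0, limma voom (limma 3.58.1), other scalings and filters, replicate blocks, left-out libraries and a removed length trend were alternatives. The script was tested on simulated counts with 200 changed genes. No replicates were alike within counting noise (chi-square per degree of freedom at least 2.30).

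Members, lists and tests were chosen with earlier results of these data known. Named were all members, other tested V-ATPase genes, and up to 3 called genes per list, comparison and direction by smallest p. Listed symbols without a match or a row were not analysed here.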

Additional observations from a re-analysis of the deposited data

How the results depend on the processing

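The 7 subunits had 35 log2 changes over 5 comparisons, which 749 alternative values tested. Of these 690 kept direction and side of the threshold, 30 lost and 7 gained a call with the same sign, and 22 changed sign, 0 of them called after the change. Among those, GFP loading of Vha36-1, had been called and lost its call with the length trend removed. The 4 calls on polysomes held under every scaling, filter and other tool and fell to 2 when only the polysome groups were fitted. Leaving out 1 library left 1 to 4, with 1 without porthos polysome replicate 3 and 2 without GFP polysome replicate 1. For the difference of changes DESeq2 called 1, and leaving out 1 library gave 0 to 3. Removing the length trend gave 3 calls in GFP loading and 1 in porthos loading. Leaving out 1 library gave 4 to 5 and 2 to 4.

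With the stricter filter VhaSFD in input was 0.00627. With library size alone the polysome change of Vha36-1 was -0.0293, GFP loading of Vha16-1 0.0165 and porthos loading of Vha68-1 0.0116. Without a filter the polysome change of Vha36-1 was -0.00586. With the length trend removed GFP loading of Vha55, Vha36-1 and Vha16-1 was 0.0589, -0.0387 and 0.138, and porthos loading of Vha68-1 0.0486. The cause was not tested.

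Leaving out 1 library, the input change ran from -0.0233 to 0.0121 for VhaSFD, from -0.0643 to 0.0107 for Vha100-1, from -0.109 to 0.0201 for Vha55 and from -0.0292 to 0.115 for Vha16-1. The polysome change ran from -0.0708 to 0.0398 for Vha36-1 and from -0.0191 to 0.112 for Vha68-1, the difference of changes of Vha36-1 from -0.00962 to 0.104, and porthos loading of Vha55 from -0.0642 to 0.125.

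Over all genes, 1014 were higher and 644 lower on polysomes. Library size alone gave 782 and 953, and the polysome groups alone 559 and 294. Without GFP polysome replicate 1 or porthos polysome replicate 1 or 3 these counts were 547 and 308, 608 and 408, and 599 and 416. Without GFP polysome replicate 3 they were 765 and 881, and without porthos polysome replicate 2 1252 and 1131. In input 90 were higher and 65 lower, against 360 and 331 with the input groups alone, 157 and 107 without a filter, 121 and 123 with DESeq2, 121 and 112 with the length trend removed, and from 21 and 10 to 138 and 121 without 1 library. For the difference of changes 7 were higher and 2 lower, against 220 and 33 with DESeq2, 149 and 94 without a filter, 6 and 10 with library size alone, 3 and 0 with limma voom or the stricter filter, 28 and 11 with a replicate block, 175 and 52 with a block per lysate, and from 0 and 0 to 512 and 182 without 1 library. With library size alone GFP loading had 3024 higher and 1999 lower, against 2395 and 2605, and porthos loading 2697 and 1728. Porthos loading had 1344 and 1290 calls with the length trend removed, against 2136 and 2175.

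With a replicate block the number of subunits called was 4 on polysomes, 0 in input, 0 for the difference of changes, 5 in GFP loading and 3 in porthos loading, as without it. The deviations of same-numbered libraries from their group means correlated with r from -0.02 to 0.08 between treatments. Within a treatment r was from 0.03 to 0.13. The numbers were not taken as a pairing in the main fit. Input and polysome fractions come from 1 lysate by the protocol, but no label says that the number marks the lysate. Within a treatment each input library correlated best with the polysome library of its number. A block per lysate, which assumes that the number marks the lysate, left 0 subunits for the difference of changes, 5 in GFP and 3 in porthos loading. Of all genes it called 2.52% for the difference of changes, against 0.0997% in the main fit.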
